A study of Mus musculus with 10 samples.

Results

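The mRNAs of 9 enzymes of mitochondrial fatty acid oxidation were followed in cultured mouse adipocyte precursors (APs) with and without IL-4: Cpt1a, Cpt2, Acadvl, Acadl, Acadm, Acads, Hadha, Hadhb and Etfdh. They were taken by name, in a choice made with earlier results of these data known. The 9 genes are among 18384 listed in the mRNA-seq libraries, and 9 of the 9 passed the filter on low counts that left 14009 genes to test. The APs came from subcutaneous white adipose tissue of C57BL/6J mice, where CD45- and CD31-bearing cells were depleted with magnetic beads and SCA-1+ cells were then retained. Control libraries (replicates 1 to 3) came from APs in growth medium, and IL-4 libraries (replicates 4 to 6) from APs that also received the type 2 cytokine IL-4 from the day after seeding. Both groups were harvested on day 4, in 3 libraries each, with no adipogenic cocktail. Animal age and the IL-4 dose were not given in the sources used here. The labels number the libraries but do not say that they came from separate animals, so p-values measure the spread between these libraries, which may be partly technical.

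Fatty acids are burned in mitochondria after they have been coupled to coenzyme A. CPT1 on the outer membrane hands a long acyl chain to carnitine, a carrier brings it across, and CPT2 on the inner membrane gives it back to coenzyme A. Acyl-CoA dehydrogenases matched to long, medium and short chains then open each cycle of beta-oxidation, and the trifunctional protein, built from HADHA and HADHB, completes the cycle for long chains. Electrons from the dehydrogenases pass through the electron transfer flavoprotein to ETFDH and so to ubiquinone. The pathway is best known in adipose tissue from brown and beige adipocytes, which use fatty acids as fuel for heat.

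The question here was whether APs held with IL-4 carried more mRNA for these enzymes. The differences were small. Hadhb was called higher at 1.18-fold and Acadl at 1.14-fold, and no enzyme was called lower. Of all genes tested, 19.0% were called higher and 18.4% lower. The fold changes of the 9 ran from 0.96 for Cpt2 to 1.18 for Hadhb. The 95% confidence intervals of the 9 fold changes, each unadjusted, lay between 0.869 and 1.30. These values are relative to TMM scaling, which sets the typical gene near 0. Against plain library totals neither rise was called, Cpt2 was called lower, and 7 of the 9 fold changes were below 1.

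Sequence at 2 loci is shown because Hadhb and Acadl were the 2 enzymes called. Hadha and Hadhb lie head to head on mouse chromosome 5, with 272 bases between their annotated starts (GRCm38.p6, the mm10 assembly, RefSeq). Hadha occupies chr5:30119423-30154980 on the minus strand and Hadhb chr5:30155253-30184593 on the plus strand. The stretch between them, chr5:30154981-30155252 on the plus strand, is 60.3% G and C and holds 18 CG pairs. Acadl lies at chr1:66830839-66863309 on the minus strand, and the 250 bases before its start, chr1:66863310-66863559, are printed in the direction of the gene. Capitals mark the GC box, GGGCGG on either strand.
Hadha to Hadhb: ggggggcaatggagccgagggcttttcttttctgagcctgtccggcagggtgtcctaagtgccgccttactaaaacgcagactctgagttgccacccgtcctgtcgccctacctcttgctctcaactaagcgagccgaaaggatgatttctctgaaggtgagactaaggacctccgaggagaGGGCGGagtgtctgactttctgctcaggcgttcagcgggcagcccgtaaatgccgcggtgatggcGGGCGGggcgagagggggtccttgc
Acadl upstream: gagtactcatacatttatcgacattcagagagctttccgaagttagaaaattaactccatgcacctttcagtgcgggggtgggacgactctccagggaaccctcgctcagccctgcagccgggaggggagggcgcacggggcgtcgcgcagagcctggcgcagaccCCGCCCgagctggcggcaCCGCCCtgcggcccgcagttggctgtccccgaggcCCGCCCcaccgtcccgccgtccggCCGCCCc

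The GC box was sought in the window from 250 bases before to 50 bases after each start. It occurred in 7 of the 9 genes (Acadl, Acads, Cpt1a, Cpt2, Etfdh, Hadha and Hadhb), against 35.9% of 27025 RefSeq promoter windows. The only box of Hadha, at -188 from its start, is the same site as the Hadhb box at -90. G and C made up 50.7% to 70.3% of the 9 windows, against a median of 52.7% over all windows. The 35.9% was not matched for this content, and enrichment was not tested. The nuclear receptor motif AGGTCA was present in Acadm, Acadvl and Cpt1a, and in 16.0% of all windows. Its direct repeat AGGTCANAGGTCA, the arrangement bound by PPAR with RXR, was in 0 of the 9 windows and in 0.0444% of all windows. The STAT6-type inverted repeat TTCNNNNGAA was also in 0 of the 9, and in 6.99% of all. The longer form of AGGTCA, TCAAGGTCA, was in 0 of the 9 and in 0.407% of all. CCAAT was found in Cpt1a and Etfdh (37.9% of all windows), and GCATGCGC, the core of the NRF1 site, in Acadm and Etfdh (2.80%). Both strands were searched. A match shows only that the letters are present in the window. The direct repeat was in only 12 of 27025 windows, so its absence from 9 decides nothing. Absence of a motif here does not speak to sites spelled otherwise or outside the windows.

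Each library held between 28526782 and 29057787 expected counts, so each enzyme was read 715 to 4243 times per library. The share of reads held by the 10 leading genes was 9.14% to 9.59% in controls and 13.8% to 15.5% with IL-4. TMM factors were 1.05 to 1.07 for controls and 0.932 to 0.961 for IL-4. Across all genes tested, 2663 rose and 2582 fell (edgeR quasi-likelihood, Benjamini-Hochberg adjusted), and with library totals in place of TMM the split was 1704 to 4963. AP markers were abundant, with summed normalized counts of 895981 to 955809 in controls and 1482792 to 1665705 with IL-4. Most of both sums was the collagen genes Col1a1, at means of 528689 and 665655 normalized counts, and Col3a1, at 325853 and 843143. Of the 12 markers 7 were higher and 2, Pdgfrb and Lum, were lower. Of the markers of mature adipocytes, Cidec, Lep and Retn had no reads, and Adipoq had 0 to 13 per library. The most abundant was Pnpla2, at 1028 to 1337 expected counts per library (log2 fold change 0.29, edgeR adjusted p = 0.0261). Lipe had 171 to 270 (log2 fold change -0.32, edgeR adjusted p = 0.0432) and Slc2a4 6 to 12. The call of Pnpla2 was lost without control replicate 1 or 2, and that of Lipe without any library but control replicate 2.

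Normalized counts, which are expected counts divided by the TMM-scaled library size and multiplied by its mean, are given first for the trifunctional protein. For Hadhb, whose product carries the thiolase that ends the cycle, control libraries gave 1709, 1734 and 1769 normalized counts and IL-4 libraries 1974, 2008 and 2169. The groups did not overlap, and the lowest IL-4 library stood above the highest control. The log2 fold change was 0.24 ± 0.06 (SE, n = 3 per group), and the adjusted p 0.0154 (edgeR quasi-likelihood, Benjamini-Hochberg). Of all genes tested, 19.0% rose at the same threshold and 18.4% fell. The call was lost without control replicate 1 (adjusted p = 0.0717 by the same edgeR test) and without control replicate 2 (adjusted p = 0.0621).

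Hadha, whose product holds the hydratase and the long-chain hydroxyacyl-CoA dehydrogenase of the same complex, read 3926, 4072 and 3952 normalized counts in controls and 4144, 4153 and 4249 with IL-4. The groups did not overlap here either, but the gap was narrow. The log2 fold change was 0.07 ± 0.05 (SE) and was not called (edgeR adjusted p = 0.328). The Hadha to Hadhb ratio in FPKM, which does not depend on library scaling, was 1.21 ± 0.03 in controls and 1.08 ± 0.04 with IL-4 (SD, n = 3). In controls it was 1.21, 1.24 and 1.18, and with IL-4 1.11, 1.09 and 1.03, so the IL-4 libraries all lay below the controls. An exact two-sided permutation test gave p = 0.1, the smallest that 3 against 3 allows, and 0.2 after adjustment over the 4 ratios examined. The log2 fold changes of Hadha and Hadhb differed by 0.17, against a median of 0.19 over 247 head-to-head pairs within 1000 bases whose genes both averaged at least 500 normalized counts.

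Among the acyl-CoA dehydrogenases, Acadvl acts on very long chains and gave the smallest difference. Its control libraries gave 1542, 1486 and 1580 normalized counts and its IL-4 libraries 1499, 1533 and 1598. The log2 fold change was 0.01 ± 0.06 (SE), with an edgeR adjusted p of 0.938 and a 95% interval of -0.13 to 0.14. Acadl, the long-chain enzyme, read 2098, 2121 and 2235 normalized counts in controls and 2306, 2472 and 2563 with IL-4. The IL-4 libraries lay above the controls without overlap. The log2 fold change of Acadl was 0.19 ± 0.06 (SE), and its adjusted p in edgeR's quasi-likelihood test was 0.0495, just inside the threshold. DESeq2, upper-quartile scaling, library totals, FPKM and testing without the filter each ended the call, as did omission of any control library or of IL-4 replicate 5, for which the edgeR adjusted p ran from 0.0704 to 0.172.

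Acadm, the medium-chain enzyme, read 1066, 1095 and 1222 normalized counts in controls and 1155, 1098 and 1250 with IL-4. The groups overlapped, and the log2 fold change was 0.05 ± 0.08 (SE, edgeR adjusted p = 0.658). Acads, the short-chain enzyme and the least abundant of the 9, read 736, 716 and 770 in controls and 765, 780 and 900 with IL-4. IL-4 replicate 4 lay within the control range and IL-4 replicate 6 was highest, and the log2 fold change of 0.14 ± 0.08 (SE) was not called (edgeR adjusted p = 0.227). Within a library, the Acadvl to Acadl ratio in FPKM was 0.628 ± 0.016 in controls and 0.555 ± 0.014 with IL-4 (SD, n = 3), again without overlap (exact permutation p = 0.1, adjusted 0.2). The Acadm to Acads ratio, 1.38 ± 0.06 and 1.31 ± 0.06, overlapped between the groups (exact permutation p = 0.2, adjusted 0.2).

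Neither of the carnitine steps was called. Cpt1a, the gate for entry of long chains, read 2249, 2384 and 2166 normalized counts in controls and 2637, 2665 and 2202 with IL-4. IL-4 replicates 4 and 5 stood above the controls, and IL-4 replicate 6 was within their range. The log2 fold change of Cpt1a was 0.14 ± 0.09 (SE, edgeR adjusted p = 0.235), and without IL-4 replicate 6 it was 0.23 with an adjusted p of 0.00772. Cpt2 read 1348, 1498 and 1454 in controls and 1381, 1363 and 1381 with IL-4, which fell within the control range. Its log2 fold change of -0.06 ± 0.06 (SE) was not called with TMM (edgeR adjusted p = 0.496), but with library totals Cpt2 was lower by edgeR (log2 fold change -0.23, adjusted p = 0.0176). The Cpt1a to Cpt2 ratio in FPKM was 0.853 ± 0.048 in controls and 0.980 ± 0.105 with IL-4 (SD, n = 3; exact permutation p = 0.2, adjusted 0.2), and the groups overlapped.

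**Figure D1:**
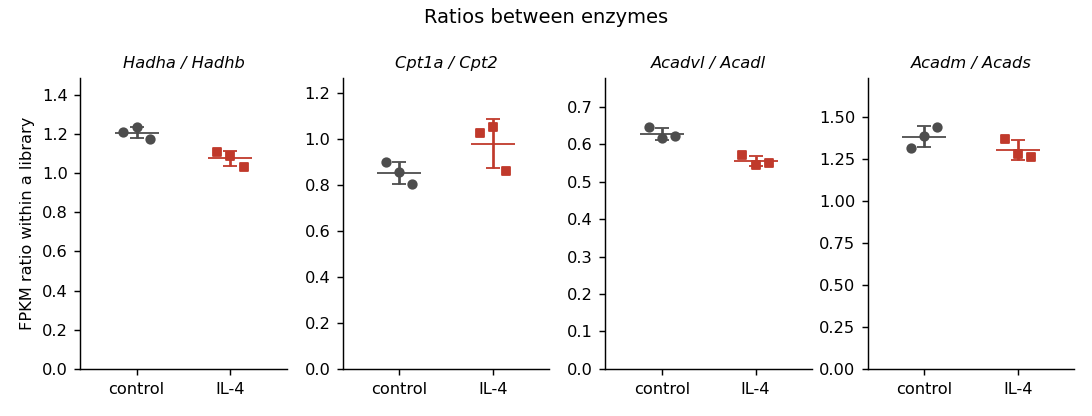
FPKM ratios within each library (vertical axes, from 0) for 4 pairs of enzymes, controls as grey circles and IL-4 as red squares, with mean and SD. Hadha to Hadhb averages 1.21 in controls and 1.08 with IL-4 and Acadvl to Acadl 0.628 and 0.555, both without overlap, and the other 2 pairs overlap.

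Etfdh, which feeds electrons from these dehydrogenases into the respiratory chain, read 1041, 1013 and 1086 normalized counts in controls and 1174, 1122 and 1176 with IL-4. The groups did not overlap. The log2 fold change was 0.14 ± 0.06 (SE) with an unadjusted p of 0.0439 and an adjusted p of 0.0984 in the edgeR fit over all genes, so Etfdh was not called.

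**Figure D2:**
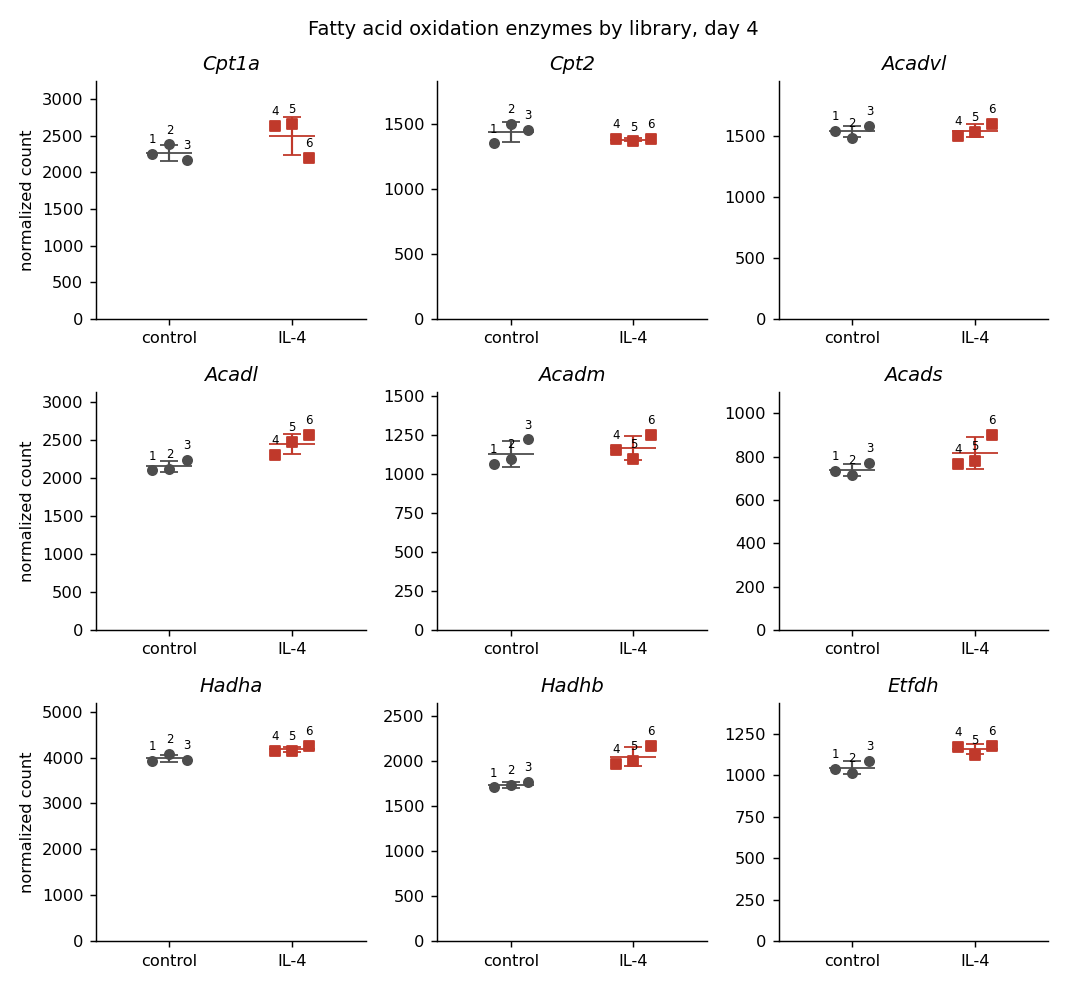
Normalized counts (vertical axes, from 0) of the 9 enzymes in each control library (grey circles, replicates 1 to 3) and IL-4 library (red squares, replicates 4 to 6), with the group mean and SD as bars. Hadhb shows the clearest separation, from 1709 to 1769 in controls to 1974 to 2169 with IL-4, while Acadvl and Cpt2 overlap.

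Of all genes tested, 19.0% rose and 18.4% fell. Over the 9 enzymes, 2 rose, 0 fell and 7 were not called by edgeR's quasi-likelihood test. At an unadjusted p under 0.05 the number was 3, and with DESeq2 1 enzyme (Hadhb) rose and 0 fell. In 4 enzymes (Acadl, Hadha, Hadhb and Etfdh) the IL-4 libraries lay wholly above the controls, a pattern held by 25.2% of genes tested, and in 0 they lay wholly below, against 25.3%. The median log2 fold change of the 9 was 0.14, beside 0.00 over all genes tested. The 9 enzymes fell within 0.25 of 0 on the log2 scale, as did 54.2% of all genes tested and 63.8% of the 7958 genes that averaged at least 500 normalized counts. No enzyme came near a log2 fold change of 1, which 5.77% of genes exceeded upward and 5.26% downward.

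**Figure D3:**
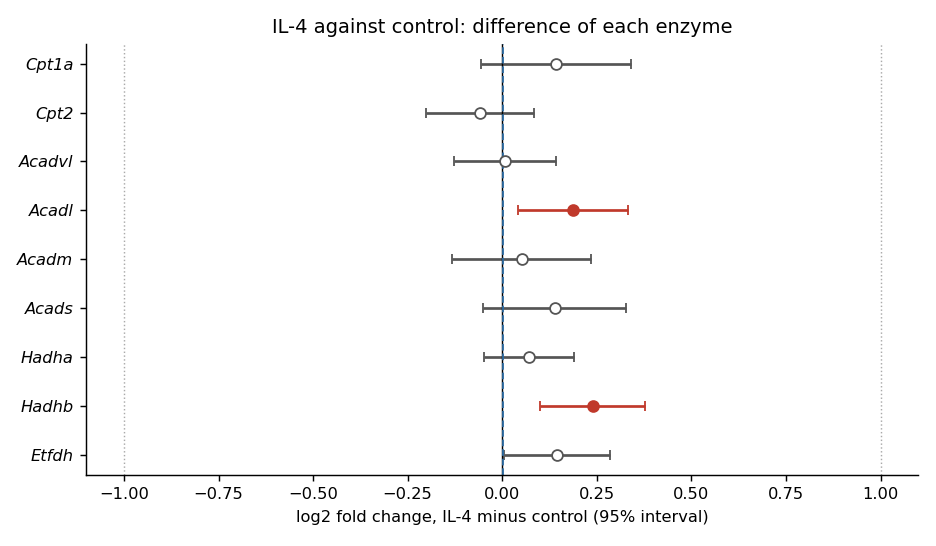
Log2 fold change of each enzyme, IL-4 minus control, with its unadjusted 95% interval (horizontal axis), from the TMM-scaled edgeR fit. Red filled points are the 2 enzymes called, Hadhb at 0.24 and Acadl at 0.19, and open points the other 7; dotted lines mark a log2 fold change of 1 in either direction and the dashed line the median of all genes, 0.00.

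Scaling shifted the whole set. With library totals, the median over all genes tested moved to -0.17, and on log2(FPKM + 0.1), where the authors had scaled by library size, to -0.17 as well. Hadhb and Acadl stayed above 0 under library totals, at 0.07 and 0.01, and the other 7 enzymes lay below 0, from -0.03 for Etfdh to -0.23 for Cpt2. Measured against the median of all genes under the same scaling, the values changed little. Scaling shifts every gene by nearly the same amount, so this follows from the arithmetic and is no test of the differences. Relative to that median, Hadhb was at 0.24 and Cpt2 at -0.06 both with TMM and with library totals. On log2(FPKM + 1) they were at 0.19 and -0.09.

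**Figure D4:**
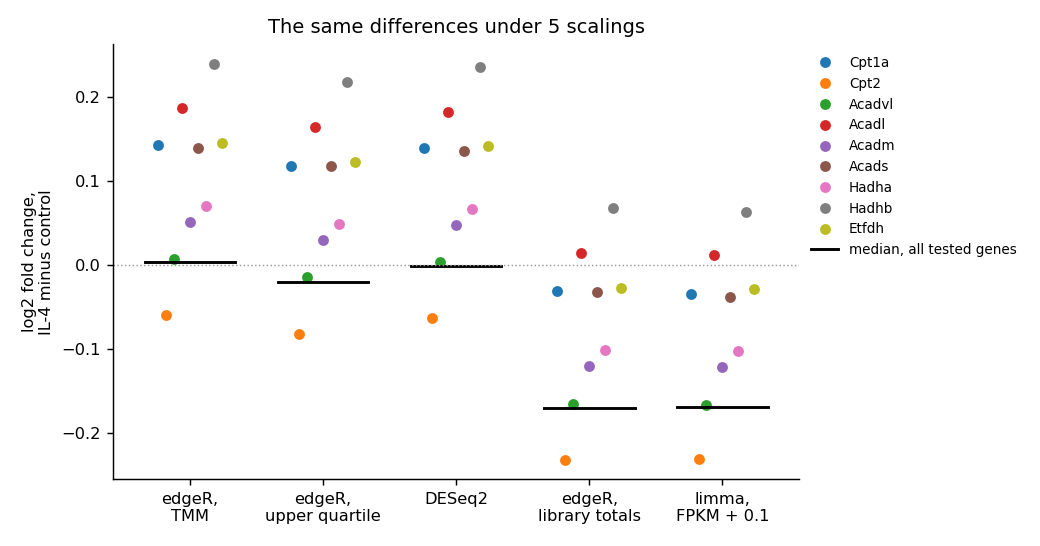
Log2 fold change, IL-4 minus control, of the 9 enzymes (coloured points) under 5 scalings, with the median of all tested genes as a black bar. The bar sits at 0.00 with TMM and at -0.17 with library totals and with FPKM, and the 9 points shift with it, so that Hadhb goes from 0.24 to 0.07 and Cpt2 from -0.06 to -0.23.

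Macrophage markers moved with treatment in the same libraries. Of 16 markers, 14 fell and 1, the mannose receptor gene Mrc1, rose by edgeR, with a median log2 fold change of -0.97. Their summed normalized counts were 161723 to 203522 in controls and 96053 to 111202 with IL-4, and none was at 0 in any library. Lyz2, the most abundant of them in controls, fell from 66861 to 85753 normalized counts to 20567 to 27879. Macrophages also express fatty acid oxidation enzymes, and the part that macrophage RNA had in the enzyme values was not tested. In bulk libraries, fewer cells of a type and less RNA per cell cannot be told apart. Markers of endothelial cells summed to 1481 to 1603 normalized counts in controls and 2460 to 3107 with IL-4 (2 of 7 higher, 3 lower). Most of that difference was Vwf, at 158 to 210 normalized counts in controls and 1325 to 1752 with IL-4, while Cdh5, Emcn and Tie1 were the 3 that fell. Markers of lymphocytes summed to 77 to 100 normalized counts in controls and 28 to 39 with IL-4. Of the 2 tested, Cd4 was lower, at 51 to 80 normalized counts in controls and 9 to 16 with IL-4. Cd8a was not called, at 18 to 21 in controls and 19 to 23 with IL-4.

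Per transcript length, the group means of the 9 enzymes held the same order in both groups, though single libraries did not all follow it. In controls, FPKM was 42.1 ± 1.8 for Acadl, 38.9 ± 0.57 for Hadha, 32.2 ± 0.77 for Hadhb, 26.5 ± 1.0 for Acadvl and 23.0 ± 1.2 for Cpt2 (SD, n = 3). Below them stood Acadm at 20.8 ± 1.7, Cpt1a at 19.6 ± 0.78, Etfdh at 17.4 ± 0.77 and Acads at 15.04 ± 0.69. The ranges of Cpt2 and Acadm, and of Acadm and Cpt1a, overlapped, and the other neighbours were separate. With IL-4 the means ran from 42.5 ± 2.8 for Acadl to 14.7 ± 1.6 for Acads, and 5 neighbouring pairs overlapped, Hadha with Hadhb at 36.2 and 33.7 among them. Cpt2, Acadm and Cpt1a were nearly level, at 19.53, 19.13 and 19.12. In IL-4 replicates 4 and 5 Cpt1a stood above both of the others. These levels placed the enzymes between the 73.8th and 90.3rd percentile of all genes listed in controls. Summed over the 9, FPKM was 231 to 243 in controls and 219 to 236 with IL-4, which overlapped, while the summed normalized counts, 15714 to 16235 in controls and 17034.5 to 17490 with IL-4, did not.

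**Figure D5:**
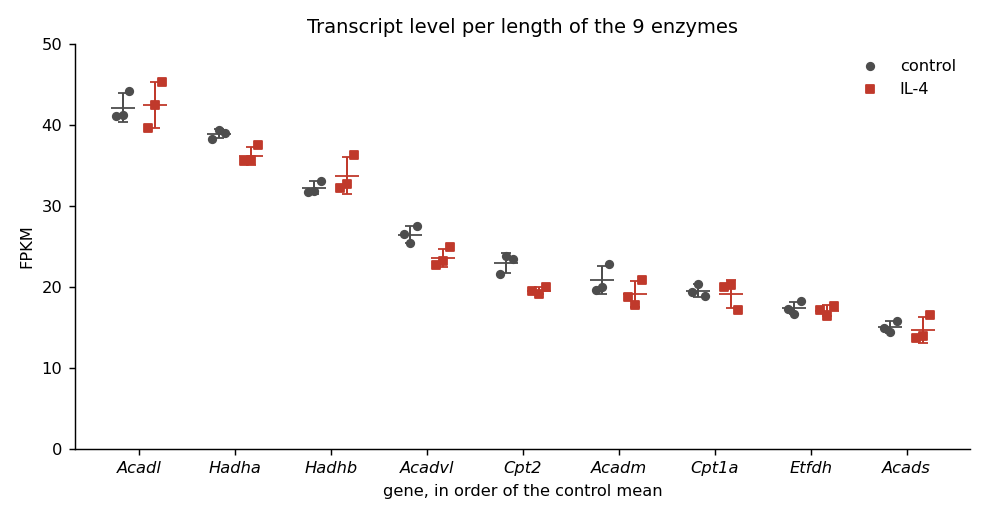
FPKM (vertical axis, from 0) of the 9 enzymes in order of the control mean, with each control library (grey circles) and IL-4 library (red squares) and the group mean and SD. Acadl leads at 42.1 in controls and 42.5 with IL-4, and Acads is last at 15.04 and 14.7.

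Libraries also differed within a group. IL-4 replicate 6 gave the highest normalized count of its group for 8 of the 9 and the lowest for Cpt1a. Control replicate 3 was highest of its group for 6 of the 9. This was not particular to the 9. IL-4 replicate 6 was also highest for Etfa, Etfb and Mdh2 and lowest for Acaca and Ncor1, genes named after their values were seen. The share over all genes was not counted. The coefficient of variation within a group ran from 0.76% (Cpt2, IL-4) to 10.4% (Cpt1a, IL-4), where counting error alone would give 2.77% and 2.06%.

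The rest of the pathway was read in the same fit, from lists drawn up by function. Beside the counts of this and the later lists, 19.0% of all genes tested rose and 18.4% fell. No list was tested as a set. Genes beyond the 4 largest of a list, or with a mean under 100 normalized counts, are named after their values were seen. Of 15 other enzymes of mitochondrial beta-oxidation, 6 rose and 0 fell, with a median log2 fold change of 0.21 beside 0.00 for all genes. Etfb and Etfa, the subunits of the electron transfer flavoprotein that ETFDH oxidizes, were at 0.37 and 0.32. Acat1 and Acaa2, thiolases, were at 0.27 and 0.25, and Eci2 and Acadsb, an isomerase and a branched-chain acyl-CoA dehydrogenase, at 0.25 and 0.23. The count was 2 with upper-quartile scaling and 0 with library totals, and it was 0, 2 and 2 without control replicates 1, 2 and 3 in turn, with edgeR adjusted p for Etfb of 0.0685 to 0.0877.

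Around the carnitine shuttle, 1 of 11 genes rose and 1 fell (median 0.09). Cpt1c, the CPT1 form best known from brain, was at 0.29 (edgeR adjusted p = 0.00830), and Acsl3, an acyl-CoA synthetase of lipid droplets, fell by 0.51 on the log2 scale (edgeR adjusted p = 4.32e-04). Slc25a20, the carnitine-acylcarnitine carrier, was at 0.16 and not called (edgeR adjusted p = 0.151). Cpt1b, the muscle form, read 84 to 110 normalized counts in controls and 48 to 90 with IL-4 and was not called (edgeR adjusted p = 0.131, and 0.0197 without IL-4 replicate 6). The overlapping read-through gene ChkbCpt1b had 0 expected counts in each control library and 44.4, 60.65 and 0 in IL-4 replicates 4, 5 and 6, so reads may be split between them and the Cpt1b values are uncertain. Of the summed FPKM of the 3 CPT1 genes, Cpt1a made up 51.5% ± 2.1 in controls and 49.7% ± 3.8 with IL-4, Cpt1c 45.1% ± 1.7 and 48.2% ± 3.2, and Cpt1b, with the same uncertainty, 3.37% ± 0.43 and 2.12% ± 0.69 (SD, n = 3).

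Peroxisomal oxidation showed larger single changes. Of 14 genes tested, 5 rose and 1 fell (median 0.17). Abcd2, a transporter of very long acyl-CoA into peroxisomes, went from 179 to 193 normalized counts in controls to 724 to 737 with IL-4, a log2 fold change of 1.96 ± 0.07 (SE, edgeR adjusted p = 6.96e-07). Hacl1 and Phyh, of alpha-oxidation, were at 0.52 and 0.51, Pex11a at 0.98 and Decr2 at 0.22. With library totals 3 rose and 4 fell. The number that rose was 3 without control replicate 1, control replicate 3 or IL-4 replicate 5, which ended the calls of Hacl1 and Decr2. Of 31 tested genes that the deposited annotation places under fatty acid beta-oxidation, with the 9 enzymes set aside, 9 rose and 3 fell (median 0.09). Among them Acat2, a cytosolic thiolase of sterol synthesis, fell by 1.01 and Auh, of leucine breakdown, rose by 0.62 on the log2 scale.

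Neighbouring routes were read in the same fit. Of 5 ketone body genes, Bdh2 (0.78) and Oxct1 (0.68) rose and Aacs fell by 0.49. The product of Oxct1 couples ketone bodies to coenzyme A for oxidation, and that of Aacs uses them for lipid synthesis. Of 7 genes for amino acid and propionyl-CoA breakdown 1 rose, Pcca at 0.44, and 0 fell. Of 10 acyl-CoA thioesterases, Them4 rose by 0.57 and Acot1 fell by 0.78, the latter not without IL-4 replicate 5 (edgeR adjusted p = 0.0536). Of 17 tricarboxylic acid cycle enzymes, Suclg2 rose by 0.23, though not without control replicate 1 (edgeR adjusted p = 0.0641), and Idh3a fell by 0.34, with a median of 0.03. With library totals 0 of these 17 rose and 6 fell.

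Genes that regulate oxidation were read next. Pparg, the nuclear receptor of adipocytes, rose from 269 to 285 normalized counts in controls to 858 to 1051 with IL-4 (log2 fold change 1.76 ± 0.10, SE; edgeR adjusted p = 4.82e-06). Ppara and Ppard, the PPARs most tied to oxidation, were at 0.46 and 0.19 and were not called (edgeR adjusted p = 0.243 and 0.0553), and Ppara read only 26 to 56 normalized counts. The coactivator Ppargc1a had 1 to 9 counts in control libraries and 32 to 57 with IL-4 (log2 fold change 3.07, edgeR adjusted p = 0.00141). In all, 5 of 19 such genes rose and 0 fell, Ppargc1b (1.08), Klf15 (0.53) and the mitochondrial deacetylase Sirt3 (0.34) being the others. Of these 5, Sirt3 alone lost its call when a library was omitted, for any but IL-4 replicate 5 (edgeR adjusted p = 0.0517 to 0.144), and without IL-4 replicate 6 Ppard and Ppara gained one (edgeR adjusted p = 0.00822 and 0.0430). Pprc1, a relative of the PGC-1 coactivators, gained one toward lower levels without control replicate 3 or IL-4 replicate 4 (edgeR adjusted p = 0.0263 to 0.0355). Of 9 genes for malonyl-CoA and AMPK, Prkaa2 rose by 1.15 and Prkag2 fell by 0.43.

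Of 10 PPAR target genes outside oxidation, 7 rose and 2 fell, with a median of 1.08. Lpl, which frees fatty acids from lipoproteins, rose by 1.72, Cd36, which takes them up, by 1.48, the droplet protein Plin4 by 1.77 and Angptl4, an inhibitor of lipoprotein lipase, by 1.28 on the log2 scale. Pdk4, which holds back glucose oxidation, fell by 1.19, and Ucp2 by 0.37. The call of Ucp2 was lost without control replicate 2, control replicate 3, IL-4 replicate 4 or IL-4 replicate 5 (edgeR adjusted p = 0.0546 to 0.108). The intervals of the 9 enzymes end at a log2 fold change of 0.38, and a difference between the lists was not tested.

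By the distance between scaled log2 counts, centred over the 6 libraries, the genes nearest to Hadhb among 11418 others were Gnas (0.0351), Dbt (0.0397) and Dmwd (0.0423). Acadl, at 0.0930, was the closest of the other enzymes and stood at rank 62. Nearest to Cpt2 were Fgfr1op2, Asb8 and R3hcc1l, at 0.0566 to 0.0581, and its closest enzyme was Hadha.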

How the data were processed

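The 3 control and 3 IL-4 mRNA-seq libraries of adipocyte precursors were used, and small RNA libraries were not used here. The authors purified polyadenylated RNA, sequenced it on a BGISEQ-500, filtered reads with SOAPnuke and estimated gene levels with Bowtie2 and RSEM, and the submitters' processing notes also name HISAT, StringTie and mm10. The deposited expected counts are not normalized, and the deposited FPKM were scaled by the authors for transcript length and library size. Tool versions were not given in the sources used here. Of expected counts above 0, 87.0% were whole, and the 54 values of the 9 enzymes were all whole. A gene missing from a library was taken as 0, 26 symbols turned into dates were replaced through their Entrez number, and 1 row without a gene name (1.60e-04% of counts) was left out.

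After rounding, filterByExpr removed low genes (at least 10 counts, 15 in total), and the rest were scaled with TMM and compared with edgeR 4.0.16's quasi-likelihood test in R 4.3.3, with Benjamini-Hochberg adjustment over 14009 genes at a threshold of 0.05. Intervals are unadjusted. Ratios used an exact two-sided permutation test. Alternatives were DESeq2 1.42.0, upper-quartile scaling, library totals, no filter on low counts, limma 3.58.1 on log2 FPKM with a pseudocount of 1 or 0.1, and each library left out in turn. edgeR without its legacy method was added after seeing the data. The fit was tested on simulated counts, with 50 genes changed at each size. It recovered 16% of them at a log2 fold change of 0.3, 54% at 0.5 and 100% at 1. Of its calls, 8.16% were on unchanged genes. An enzyme that was not called may therefore still have changed by a small amount. The enzymes, gene lists and tests were chosen with earlier results of these data known. Named from each pathway list were at most 4 called genes with the largest change and a mean of at least 100 normalized counts, plus Cpt1b, Slc25a20, Acaa2, Pparg, Ppara, Ppard and Ppargc1a; of cell type lists, the most abundant and those at 0; and the 3 genes nearest to the enzymes with the largest rise and fall. Starts and sequences came from RefSeq on GRCm38.p6, where 99.8% of tested genes had a start. Python 3.11.15 with pandas 2.3.3, scipy 1.17.1 and matplotlib 3.10.9 was used. A result for 1 listed gene is not reported here.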

Additional observations from a re-analysis of the deposited data

How the results depend on the processing

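Of 117 values of the 9 enzymes under alternatives, 77 kept their direction and their side of the threshold, 15 lost the call, 4 gained one and 21 changed sign. With library totals, log2(FPKM + 1) and log2(FPKM + 0.1), in that order, the log2 fold change was -0.032, -0.034 and -0.035 for Cpt1a, -0.17, -0.16 and -0.17 for Acadvl, -0.12, -0.12 and -0.12 for Acadm, -0.033, -0.036 and -0.039 for Acads, -0.10, -0.10 and -0.10 for Hadha, and -0.028, -0.027 and -0.029 for Etfdh. Acadvl was also below 0 with upper-quartile scaling (-0.015), and over the omission of each library it ran from -0.017 (without control replicate 2) to 0.037, with -0.014 without IL-4 replicate 6. Under these 3 scalings the median of all genes was between -0.17 and -0.13. They gave 1704, 1697 and 1694 genes higher and 4963, 4916 and 4904 lower, in place of 2663 and 2582.

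The number of enzymes that rose, 2, was 0 under those 3 scalings, 1 with upper-quartile scaling, without the filter and with DESeq2, and 0 to 3 when each library was left out. The number that fell, 0, was 1 (Cpt2) under those 3 scalings and 0 without any 1 library. Under them, too, the carnitine list gave 0 higher and 2 lower, other mitochondrial enzymes 0 higher and 2, 1 and 2 lower, peroxisomal genes 3 higher and 4 lower, ketone body genes 2 lower, AMPK genes 2 lower, regulators 4 lower, cycle enzymes 0 higher and 6 lower, the annotated beta-oxidation genes 4 higher and 9 lower, and mature adipocyte markers 0 higher. Thioesterases gave 2 lower with library totals and log2(FPKM + 0.1). Upper-quartile scaling gave 2 other mitochondrial enzymes higher, 2 AMPK genes lower, 1 regulator lower and 0 mature adipocyte markers higher. DESeq2 gave 1 regulator lower, 2 macrophage markers higher, and 2 mature adipocyte markers higher and 0 lower. Without the filter, 0 peroxisomal genes were lower, and 2 macrophage and 2 mature adipocyte markers were higher. The cause of these differences was not tested.

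With each library left out in turn, the counts higher and lower ran over 2017 to 3199 and 1911 to 3014 for all genes, 1 to 1 and 1 to 2 for the carnitine list, 0 to 7 and 0 to 1 for other mitochondrial enzymes, 3 to 7 and 0 to 1 for peroxisomal genes, 1 to 2 higher for amino acid breakdown, 1 to 2 lower for ketone bodies, 1 to 2 and 0 to 1 for thioesterases, 1 to 2 higher for AMPK genes, 0 to 1 lower for regulators, 1 to 2 lower for PPAR targets, 0 to 1 and 1 to 2 for cycle enzymes, 1 to 2 higher for macrophage markers, 0 to 1 and 0 to 1 for mature adipocyte markers, and 6 to 13 and 1 to 5 for annotated beta-oxidation genes. The 4 ratios kept their direction, over -0.19 to -0.14 for Hadha to Hadhb, 0.14 to 0.29 for Cpt1a to Cpt2, -0.20 to -0.16 for Acadvl to Acadl and -0.12 to -0.05 for Acadm to Acads on the log2 scale. The edgeR fit without its legacy method, chosen after seeing the data, kept both calls. No paired analysis was possible because the control and IL-4 libraries share no replicate numbers. With 3 libraries a group, exact tests cannot go below 0.1.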
